A study of Mus musculus with 6 samples.

Results

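Translation initiation factor genes were taken as every gene of the deposited table whose symbol starts with Eif, without the eIF2α kinases (Eif2ak) and the Y-linked *Eif2s3y*. The rule found 50 of 16244 genes. Of these, 49 had a mean of at least 10 normalized reads over the libraries and were tested. The other, *Eif4a3l1*, had 1 read in 1 library. The read counts give RNA abundance, and protein levels and phosphorylation were not analysed here.

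Initiation factors place the initiator tRNA, the small ribosomal subunit and the mRNA cap together and let the complex scan to a start codon. eIF2 carries the initiator tRNA and is recharged by eIF2B, eIF3 is the scaffold on the small subunit, and eIF4E, eIF4G and eIF4A bind and unwind the capped end of the mRNA. The 4E-binding proteins hold eIF4E away from eIF4G until mTOR phosphorylates them, and eIF2α phosphorylation turns eIF2 into an inhibitor of eIF2B. Activated T cells raise this machinery as they grow and divide.

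RNA-seq was performed on 3 WT and 3 N275D libraries. The WT cells were from C57BL/6 mice and the N275D cells from RORγt N275D knockin mice on a C57BL/6 background, with an age of 6 to 12 weeks given for the mice of the study in general. The methods say that mice of both sexes were used throughout, matched for sex where that could be done. WT mice were bought from a supplier, and knockin mice were obtained from another laboratory. Littermate controls are named for the transfer colitis alone, so substrain and colony may differ between the genotypes here. The part of such differences in the changes below was not tested. Zygosity, and the sex behind each library, are not given for these libraries in the sources used here, nor whether the libraries of a genotype came from separate animals or cultures, so p-values measure the spread between these libraries. For all libraries the labels name spleen and Th17 cells, and the methods describe naive CD4+ T cells cultured for 3 days on anti-CD3 and anti-CD28 under pathogenic Th17 conditions. These conditions are listed as TGF-β, IL-6, IL-23, IL-1β, anti-IL-4 and anti-IFN-γ in the methods, whereas the series design names IL-6, IL-1β and IL-23 alone.

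Each library held 17659035 to 18510878 reads on genes. WT replicate 3 was the WT library farthest from its group in 31 of the 49 genes tested. In pairs of replicates that held it, the median chi-square over genes was 2.96 to 3.05 times that of counting noise, and in the other pairs 1.32 to 1.54 times. Without it, 35 of the genes were called, 30 lower (61.2%) and 5 higher (10.2%), beside 27.6% lower and 26% higher of all genes in the same fit. Calls that change without it are given beside each gene. All 9 T cell and Th17 markers listed were measured, with a summed level of 76904 to 81126 normalized reads in WT and 89156 to 90222 in N275D libraries. B cell markers (4 of 5 tested) summed to 150.4 to 160.1 in WT and 214 to 273 in N275D libraries, myeloid markers (2 of 5 tested) to 81.8 to 92.8 and 82.0 to 106, and CD8 T and natural killer markers (3 of 5 tested) to 173 to 204 and 256 to 272. Of these markers, *Ncr1* was not in the table used here. The part of these cells in the results below was not tested. In bulk RNA, fewer cells of a type and less RNA per cell cannot be told apart.

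Promoter windows of the RefSeq annotation (GRCm38.p6, the build mm10) matched 39 of the 50 genes. The 250 bases before the start are shown for the genes with an entry that fell by more than 0.3 on the log2 scale, *Eif2d*, *Eif2b1* and *Eif4g1*, and for those with an entry that rose, *Eif2s2*, *Eif4a2* and *Eif3c*. Each is written 5′ to 3′ on the strand of the gene. Capitals mark ACGTG, the core of the hypoxia response element, on either strand, and the E-box CACGTG, bound by MYC, which always contains it.
Eif2d (chr1:131152957-131153206, plus strand): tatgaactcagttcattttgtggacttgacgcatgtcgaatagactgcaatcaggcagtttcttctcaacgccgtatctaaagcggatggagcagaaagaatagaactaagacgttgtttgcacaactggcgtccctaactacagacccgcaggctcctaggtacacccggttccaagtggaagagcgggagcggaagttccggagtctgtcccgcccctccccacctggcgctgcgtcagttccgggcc
Eif2b1 (chr5:124579132-124579381, minus strand): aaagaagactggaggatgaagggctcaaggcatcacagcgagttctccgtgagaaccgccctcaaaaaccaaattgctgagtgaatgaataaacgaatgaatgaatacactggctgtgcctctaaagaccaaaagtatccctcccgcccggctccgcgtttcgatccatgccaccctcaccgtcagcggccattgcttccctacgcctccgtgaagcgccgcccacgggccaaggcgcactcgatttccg
Eif4g1 (chr16:20672477-20672726, plus strand): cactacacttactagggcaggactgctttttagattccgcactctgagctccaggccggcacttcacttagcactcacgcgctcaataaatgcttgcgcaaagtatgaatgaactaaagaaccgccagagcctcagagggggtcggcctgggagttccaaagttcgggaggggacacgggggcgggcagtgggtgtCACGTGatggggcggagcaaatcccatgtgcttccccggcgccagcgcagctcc
Eif2s2 (chr2:154892907-154893156, minus strand): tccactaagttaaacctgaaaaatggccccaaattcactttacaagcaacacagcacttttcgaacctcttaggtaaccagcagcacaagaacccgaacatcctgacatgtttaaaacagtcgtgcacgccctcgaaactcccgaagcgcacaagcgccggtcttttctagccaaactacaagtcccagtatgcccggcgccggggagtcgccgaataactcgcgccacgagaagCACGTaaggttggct
Eif4a2 (chr16:23107218-23107467, plus strand): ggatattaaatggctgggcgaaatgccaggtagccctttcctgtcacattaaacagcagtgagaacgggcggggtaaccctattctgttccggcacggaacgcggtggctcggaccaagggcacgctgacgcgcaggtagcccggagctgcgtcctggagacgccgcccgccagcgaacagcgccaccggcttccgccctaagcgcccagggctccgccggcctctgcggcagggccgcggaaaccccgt
Eif3c (chr7:126566367-126566616, minus strand): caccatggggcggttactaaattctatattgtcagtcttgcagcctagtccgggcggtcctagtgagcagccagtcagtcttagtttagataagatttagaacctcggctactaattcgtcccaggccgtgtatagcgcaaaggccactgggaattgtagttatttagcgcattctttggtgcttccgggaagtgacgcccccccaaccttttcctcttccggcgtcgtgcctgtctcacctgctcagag

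An E-box was present in windows of 10 of the 39 genes (25.6%), against 11.9% of 9582 genes tested and 8.09% of all 27025 genes with a window. These windows run from 250 bases before to 50 bases after the start, and both strands were searched. ACGTG was present in 18 of 39 genes (46.2%), against 29.9% of genes tested, and all 10 genes with an E-box are among these 18. AGGTCA, the ROR half-site, was present in 4 of 39 (10.3%) against 14.8%, and TGATGNAA, the letters of the ATF4 element, in 1 of 39 (2.56%) against 2.68%. Of the 10 genes with an E-box, 6 were called lower in N275D cells, 4 were not called and 0 were called higher, beside 22 called lower and 3 called higher of all 39 with a window, so the share called lower was about the same (60% and 56.4%). A match is a description of letters and not of binding. To show the letters around it, the E-box (in capitals) of the 6 genes called lower is given with 12 bases on either side.
Eif1b (chr9:120492570-120492599, plus strand): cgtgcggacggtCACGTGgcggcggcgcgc
Eif4a1 (chr11:69672595-69672624, minus strand): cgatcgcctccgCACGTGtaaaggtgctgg
Eif4e (chr3:138527028-138527057, plus strand): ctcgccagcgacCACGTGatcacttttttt
Eif4e (chr3:138527192-138527221, plus strand): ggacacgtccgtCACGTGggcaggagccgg
Eif4g1 (chr16:20672661-20672690, plus strand): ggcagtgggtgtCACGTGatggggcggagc
Eif4g1 (chr16:20672730-20672759, plus strand): ctctgcgccggtCACGTGgggcgctggctg
Eif4h (chr5:134639488-134639517, minus strand): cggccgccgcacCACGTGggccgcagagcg
Eif5a (chr11:69921443-69921472, minus strand): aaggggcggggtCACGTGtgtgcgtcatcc
Eif5a (chr11:69920791-69920820, minus strand): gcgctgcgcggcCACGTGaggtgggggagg

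To compare the genotypes, log2(normalized reads + 1) was tested with limma across 11908 genes. Of the 49 initiation factor genes tested, 25 were called lower and 5 higher in N275D than in WT Th17 cells at an adjusted p under 0.05. The share called lower was 51.0%, beside 26.1% of all genes tested, and the share called higher was 10.2%, beside 24.7%. In either direction 61.2% were called, beside 50.9% of all genes. The changes were small. The median log2 fold change was -0.14, beside 0.00 for all genes tested, and 0 of 49 reached 2-fold, beside 3.59% of all genes, although 30 had an unadjusted p under 0.05. edgeR and DESeq2 on the recovered reads gave 30 and 29 calls, and 0 at 2-fold.

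The 3 N275D libraries all lay below the 3 WT libraries in 29 of the 49 genes (59.2%), beside 29.6% of all genes tested, and all above in 5 (10.2%), beside 28.1%. Abundant genes leaned lower in general. Among the 4220 genes whose mean reached 1000 normalized reads, a limit chosen after the data were seen, 40.7% were called lower and 19.9% higher, with a median log2 fold change of -0.06. For the 43 initiation factor genes above that limit the shares were 53.5% and 9.30%, and the median was -0.13. Quantile normalization gave 18 genes called lower and 5 called higher, and moved the median of the 49 genes to -0.07 and that of the abundant genes to -0.01.

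**Figure D1:**
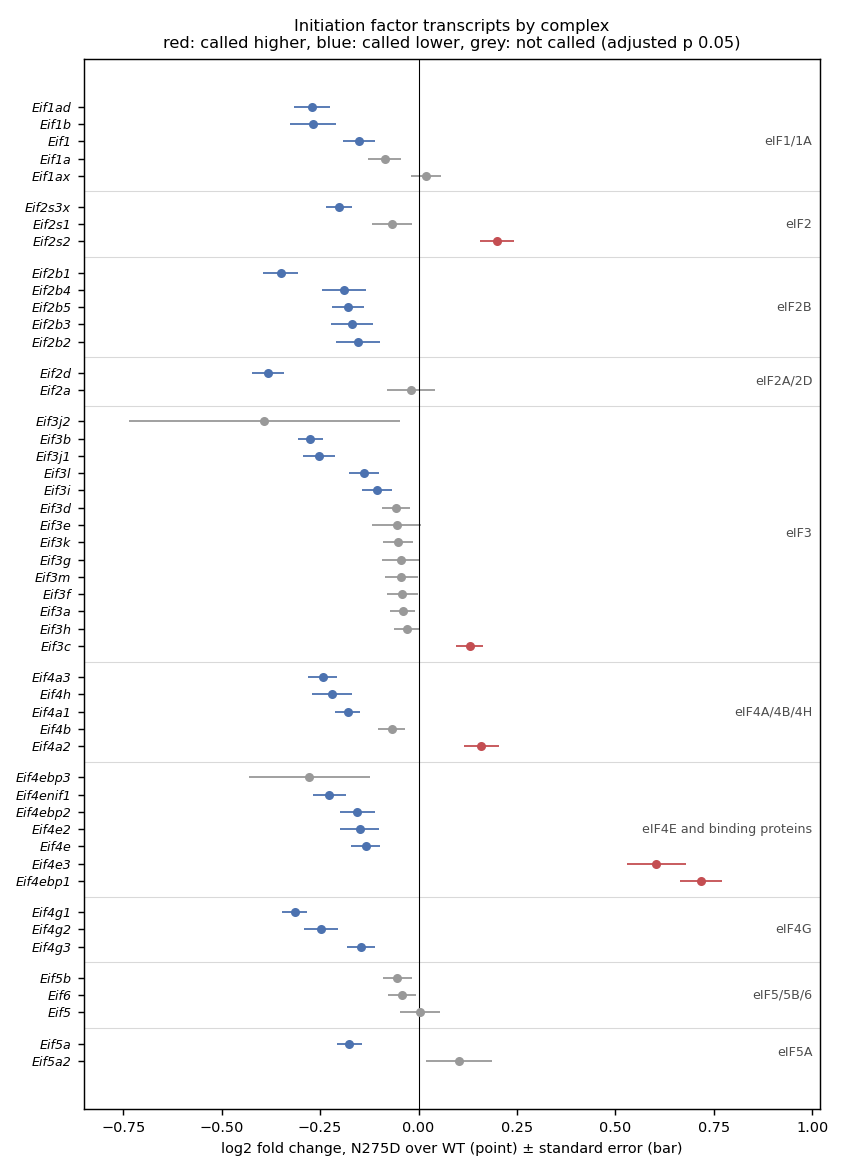
Log2 fold change of each initiation factor gene tested (x axis, N275D over WT, with its standard error as the bar), grouped by factor complex. The eIF2B and eIF4G genes all lie below 0 in blue (called lower), most eIF3 genes lie near 0 in grey, and *Eif4ebp1* and *Eif4e3* stand apart on the right at 0.72 and 0.60.

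Within WT cells, levels per length were read from normalized reads per kilobase of merged exons (GENCODE M21). *Eif4a1* was the most abundant at 15092, followed by *Eif5a* at 12674, *Eif1* at 7131 and *Eif3h* at 5412 normalized reads per kilobase, and WT libraries of neighbours in this order did not overlap. After *Eif3i*, *Eif2s3x*, *Eif4g2*, *Eif4h* and *Eif3b* followed with levels between 4295 and 4066, and their WT libraries overlapped from each gene to the next. At the low end were *Eif4e3* (129), *Eif4ebp3* (87.2) and *Eif3j2* (11.2), with *Eif5a2* overlapping *Eif4ebp3*. In all, 24 of 48 neighbouring pairs overlapped.

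**Figure D2:**
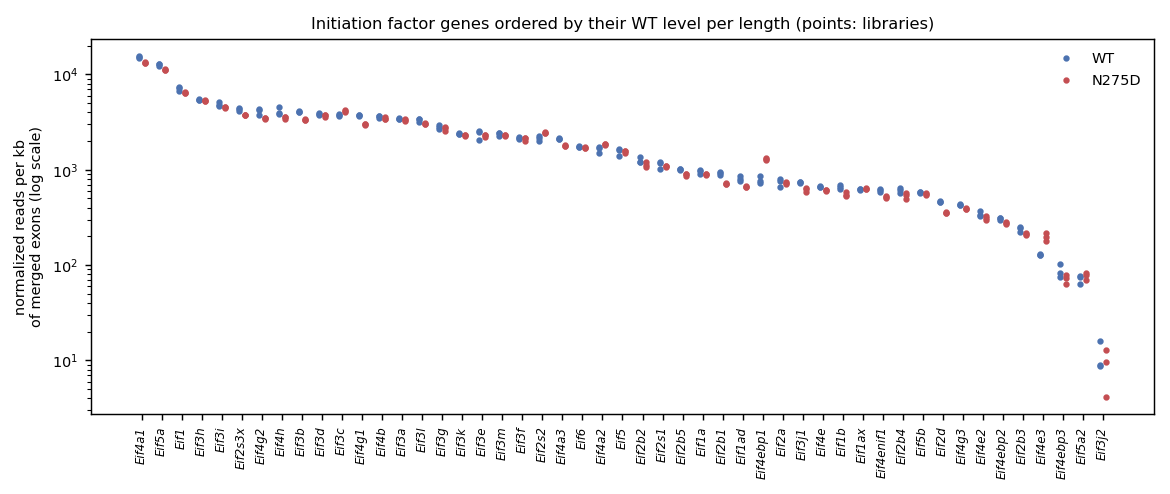
Level of each initiation factor gene in each library, in normalized reads per kilobase of merged exons (y axis, log scale), with genes ordered by their WT mean (x axis) and WT and N275D libraries as blue and red points. The order spans from *Eif4a1* at 15092 to *Eif3j2* at 11.2 in WT, and *Eif4ebp1* is the gene whose red points sit farthest above its blue ones.

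The largest changes were in the cap-binding group. *Eif4ebp1* (GRCm38 chromosome 8, 27260327 to 27275656) encodes 4E-BP1, the inhibitor of eIF4E that mTOR controls. *Eif4ebp1* had 1538, 1464 and 1722 normalized reads in the WT libraries and 2598, 2498 and 2653 in the N275D libraries. Every N275D library lay above every WT library, with a log2 fold change of 0.72 (SE 0.05, limma adjusted p = 2.17e-08). Its paralog *Eif4ebp2* had 1699.7, 1801 and 1826 normalized reads in the WT libraries and 1578, 1583 and 1619 in the N275D libraries, and here every N275D library lay below every WT library, with a log2 fold change of -0.16 (SE 0.04, limma adjusted p = 0.00749). The third 4E-binding protein gene, *Eif4ebp3*, was scarce, and its log2 fold change of -0.28 did not pass the test (adjusted p = 0.147), though it was called lower under quantile normalization (-0.45, adjusted p = 0.0233).

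*Eif4e3* (chromosome 6, 99621879 to 99692873), which encodes an unusual cap-binding protein, had 324, 329.9 and 323 normalized reads in the WT libraries and 492, 552 and 447 in the N275D libraries. The WT libraries lay close together and all below the N275D libraries, which spread more. The log2 fold change was 0.60 (SE 0.07, limma adjusted p = 5.87e-06). *Eif4e*, the main cap-binding protein gene, moved the other way, with 3413, 3494 and 3354 normalized reads in the WT libraries and 3099.7, 3113 and 3139 in the N275D libraries. Its log2 fold change was -0.13 (SE 0.04, limma adjusted p = 0.00656). *Eif4e2*, which encodes the cap-binding repressor 4EHP, had 2455, 2518 and 2771 normalized reads in the WT libraries and 2311, 2233 and 2432 in the N275D libraries, without overlap and with a log2 fold change of -0.15 (SE 0.05, limma adjusted p = 0.0189). *Eif4enif1*, the gene of the eIF4E transporter, was also lower (-0.23, adjusted p = 0.000287). In this group 2 of 7 genes were called higher (28.6%, beside 24.7% of all genes), 4 lower (57.1%, beside 26.1%) and 1 was not called. Among genes with a mean of at least 1000, 19.9% were called higher and 40.7% lower. The summed reads of N275D libraries were 99.1% to 102% of the WT mean. The calls of *Eif4e*, *Eif4e2* and *Eif4ebp2* were lost under quantile normalization, and that of *Eif4e2* also in eBayes without a trend and without N275D replicate 1 or 2.

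All 3 eIF4G genes were called lower in N275D cells (100%, beside 26.1% of all genes and 40.7% of genes with a mean of at least 1000). *Eif4g1* (chromosome 16, 20672720 to 20692883), the main scaffold that joins the cap-binding protein to the helicase and eIF3, had 22047, 22742 and 22623 normalized reads in the WT libraries and 18010.3, 18365 and 17829 in the N275D libraries. The genotypes did not overlap, and the log2 fold change was -0.31 (SE 0.03, limma adjusted p = 6.08e-07). *Eif4g2* (chromosome 7, 111067985 to 111083030), whose product DAP5 lacks the eIF4E-binding region, had the highest read count of the group, with 33726, 34743 and 30214 normalized reads in the WT libraries and 28014, 27179 and 27733 in the N275D libraries. WT replicate 3 was the lowest of its group and still above every N275D library, and the log2 fold change of *Eif4g2* was -0.25 (SE 0.04, limma adjusted p = 0.000169). *Eif4g3* had 4347, 4456 and 4300.3 normalized reads in the WT libraries and 3915, 3935 and 3999 in the N275D libraries, with a log2 fold change of -0.15 (SE 0.04, limma adjusted p = 0.00303), and lost its call under quantile normalization (adjusted p = 0.0981). Summed over the 3 genes, N275D libraries held 82.8% to 83.6% of the WT mean, where WT libraries ranged from 95.7% to 104%, the lowest summed reads of any complex relative to WT.

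**Figure D3:**
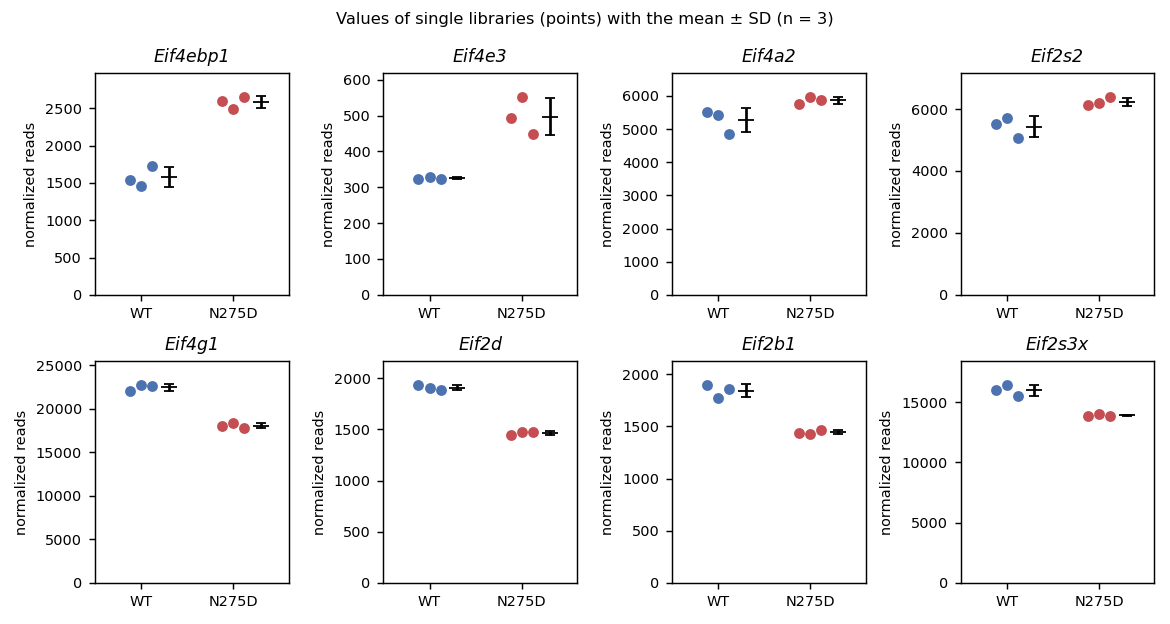
Normalized reads in each library (points) with the mean ± SD (n = 3) for the 4 genes with the largest log2 fold changes above 0 among those called (top row) and for *Eif4g1*, *Eif2d*, *Eif2b1* and *Eif2s3x* (bottom row). All y axes start at 0, and in none of the 8 genes do the genotypes overlap.

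The helicase genes were split. *Eif4a1*, the main RNA helicase of initiation, had 26912, 27351 and 26057 normalized reads in the WT libraries and 23881, 23539 and 23481 in the N275D libraries, and *Eif4a2*, its close paralog, had 5518, 5435 and 4846 normalized reads in the WT libraries and 5767, 5970.1 and 5885 in the N275D libraries. The genotypes did not overlap for either gene. *Eif4a1* fell, with a log2 fold change of -0.18 (SE 0.03, limma adjusted p = 0.0002), and *Eif4a2* rose, with 0.16 (SE 0.05, limma adjusted p = 0.00751). The call of *Eif4a2* was lost in eBayes without a trend (adjusted p = 0.0746). *Eif4a3*, which encodes the helicase of the exon junction complex, fell (-0.24, adjusted p = 4.78e-05), as did *Eif4h*, a helicase cofactor (-0.22, adjusted p = 0.0018), whose call was lost in eBayes without a trend (adjusted p = 0.0513). The other cofactor gene, *Eif4b*, had a log2 fold change of -0.07 (95% interval -0.14 to 0.00, adjusted p = 0.102). It was called lower once WT replicate 3 was left out (-0.09, adjusted p = 0.0121).

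The genes of eIF2, the carrier of the initiator tRNA, did not move together. *Eif2s3x*, which encodes the γ subunit that binds GTP and the tRNA, had 15991, 16420.2 and 15527 normalized reads in the WT libraries and 13810.5, 13968 and 13873 in the N275D libraries. All N275D libraries were below all WT libraries, with a log2 fold change of -0.20 (SE 0.03, limma adjusted p = 9.00e-05). The Y-linked *Eif2s3y* was left out by the rule, so its reads are not in the eIF2 sums. The sex behind each library is not given, and a part of sex in the fall of *Eif2s3x* was not tested. *Eif2s2*, the β subunit gene, rose, with 5438 ± 332 normalized reads in WT and 6239 ± 135 in N275D cells (SD, n = 3 each), which is 0.20 (SE 0.04, limma adjusted p = 0.00107) on the log2 scale. *Eif2s1*, whose α subunit is the target of the stress kinases, had a log2 fold change of -0.07 (95% interval -0.17 to 0.04, adjusted p = 0.28). Without WT replicate 3 it was called lower (-0.14, adjusted p = 0.0007).

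By contrast, all 5 genes of eIF2B, the exchange factor that recharges eIF2 with GTP, were called lower. This is 100%, beside 26.1% of all genes and 40.7% of genes with a mean of at least 1000, which *Eif2b3* did not reach. *Eif2b1* (chromosome 5, 124570214 to 124579131), the α subunit gene, had 1899, 1773 and 1861 normalized reads in the WT libraries and 1438, 1432 and 1469.5 in the N275D libraries. The genotypes did not overlap, and its log2 fold change of -0.35 (SE 0.04, limma adjusted p = 6.49e-06) was the largest of the 5. *Eif2b5*, which encodes the catalytic ε subunit and had the most reads of the group, had 2621, 2522 and 2582 normalized reads in the WT libraries and 2311, 2217 and 2296 in the N275D libraries. The log2 fold change of *Eif2b5* was -0.18 (SE 0.04, limma adjusted p = 0.00139). The other subunit genes had -0.19 (*Eif2b4*), -0.17 (*Eif2b3*) and -0.15 (*Eif2b2*). None of the 5 overlapped between genotypes (100%, beside 29.6% of all genes lower without overlap). For *Eif2b2* the margin was narrow, with 1914 normalized reads in N275D replicate 2 and 1917 in WT replicate 2. Summed eIF2B reads in N275D libraries were 85.7% to 88.0% of the WT mean. *Eif2b2*, *Eif2b3* and *Eif2b4* lost their calls in some alternatives. Beyond the left-out libraries, *Eif2b2* was at an adjusted p of 0.176 under quantile normalization, 0.135 in eBayes without a trend and 0.0581 with all genes with a mean above 0, and *Eif2b4* at 0.0642 in eBayes without a trend. With 1 library left out, *Eif2b2* was at 0.0794 without WT replicate 3, 0.163 without N275D replicate 1 and 0.0726 without N275D replicate 3, *Eif2b3* at 0.0515, 0.0653 and 0.0567 without WT replicate 1, WT replicate 2 or N275D replicate 1, and *Eif2b4* at 0.0726 without N275D replicate 3.

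*Eif2d* (chromosome 1, 131153172 to 131187659) encodes a factor that can bring tRNA to the ribosome without eIF2. It had 1936, 1907 and 1883 normalized reads in the WT libraries and 1445, 1476 and 1470.5 in the N275D libraries. The N275D libraries were all lower, with a log2 fold change of -0.38 (SE 0.04, limma adjusted p = 1.37e-06), the largest fall among the genes called. *Eif2a*, the other factor of this kind and not the gene of the eIF2 α subunit, had 1747, 1856 and 1515 normalized reads in the WT libraries and 1675, 1637 and 1721 in the N275D libraries. Its genotypes overlapped, with a log2 fold change of -0.02 (95% interval -0.15 to 0.11, adjusted p = 0.815), and it was called lower without WT replicate 3 (-0.10, adjusted p = 0.0388).

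Of the 14 eIF3 genes, 4 were called lower (28.6%), beside 26.1% of all genes and 40.7% of genes with a mean of at least 1000. Of the others, 1 was called higher and 9 were not called, and the median log2 fold change of the group was -0.05. All N275D libraries lay below all WT libraries in 7 of the 14 (50%), beside 29.6% of all genes. The log2 fold change was below 0 in 13 of the 14, though several changed sign under quantile normalization, as listed in the last section. *Eif3a*, which encodes the largest subunit and had the most reads, had 17331, 17302 and 17746 normalized reads in the WT libraries and 16980.1, 17270.1 and 16699 in the N275D libraries. The libraries did not overlap, yet the log2 fold change of -0.04 (95% interval -0.11 to 0.03, adjusted p = 0.309) did not pass the test. *Eif3b*, the scaffold of the subcomplex with eIF3i and eIF3g, was lower without overlap, at -0.27 (SE 0.03, limma adjusted p = 3.28e-06). Its partner *Eif3i* was lower by less (-0.11, adjusted p = 0.0326) and lost this call in 9 of 16 alternatives, among them the fit without WT replicate 3 (-0.07, adjusted p = 0.0608) and quantile normalization (adjusted p = 0.851), and the third, *Eif3g*, was not called (-0.05).

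Among the genes of the octamer that forms the core of eIF3, *Eif3c* rose and *Eif3l* fell. *Eif3c* had 12692 ± 327 normalized reads in WT and 13889.8 ± 321 in N275D cells (SD, n = 3 each), and its log2 fold change was 0.13 (SE 0.03, limma adjusted p = 0.0045). *Eif3l* was lower (log2 fold change -0.14, adjusted p = 0.00563), a call lost under quantile normalization. The octamer genes *Eif3e*, *Eif3f*, *Eif3h*, *Eif3k* and *Eif3m* had log2 fold changes between -0.06 and -0.03 and were not called (all 5 lay above 0 under quantile normalization), although *Eif3e* and *Eif3m* were called lower without WT replicate 3. *Eif3d*, which can itself bind some caps, was not called (-0.06). Summed eIF3 reads were 94.9% to 96.7% of the WT mean in N275D libraries and 99.8% to 100.2% in WT libraries.

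*Eif3j1*, the gene of the loosely bound eIF3j, had 3954, 4064 and 4027 normalized reads in the WT libraries and 3198, 3474 and 3441 in the N275D libraries. Its log2 fold change was -0.25 (SE 0.04, limma adjusted p = 7.77e-05), without overlap. *Eif3j2* had 38.4, 21.2 and 20.6 normalized reads in the WT libraries and 30.9, 23.1 and 9.88 in the N275D libraries, and these overlapped. The annotated coding sequence of *Eif3j1* was found in *Eif3j2* with 100% identity over 783 aligned bases, so reads from one copy can be counted for the other, and the levels of the 2 genes are uncertain.

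Of the 5 genes grouped by symbol with eIF1 and eIF1A, 3 were called lower. This is 60%, beside 26.1% of all genes and 40.7% of genes with a mean of at least 1000. *Eif1*, which guards start codon choice, had 9846, 9606 and 8828 normalized reads in the WT libraries and 8364, 8468 and 8609 in the N275D libraries. Its log2 fold change was -0.15 (SE 0.04, limma adjusted p = 0.00505). *Eif1b*, its paralog, had 689, 658 and 720.0 normalized reads in the WT libraries and 604, 559 and 554 in the N275D libraries, a log2 fold change of -0.27 (SE 0.06, limma adjusted p = 0.00132). *Eif1ad*, which encodes a protein with an eIF1A domain, was lower as well (-0.27, adjusted p = 0.000143). For none of these 3 genes did the libraries overlap (60% of the 5, beside 29.6% of all genes lower without overlap). The genes of eIF1A itself were not called. *Eif1a* had 4036, 4169 and 3746 normalized reads in the WT libraries and 3793, 3669.7 and 3786 in the N275D libraries, with a log2 fold change of -0.09 (95% interval -0.18 to 0.00, adjusted p = 0.102). *Eif1ax* had 3284, 3247 and 3178 normalized reads in the WT libraries and 3248, 3235 and 3349.8 in the N275D libraries, with 0.02 (95% interval -0.06 to 0.10, adjusted p = 0.707). *Eif1a* was called lower without WT replicate 3 (-0.13, adjusted p = 0.00176), and *Eif1* lost its call under quantile normalization and in eBayes without a trend.

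None of the genes of the last steps, in which the start codon is accepted and the large subunit joins, was called. *Eif5*, the gene of the GTPase activator of eIF2, had 6761, 6907 and 5831 normalized reads in the WT libraries and 6368, 6559 and 6569 in the N275D libraries. WT replicate 3 was below the N275D libraries and the other WT libraries above them, and the log2 fold change was 0.00 (95% interval -0.10 to 0.11, adjusted p = 0.958). Without WT replicate 3, *Eif5* was at -0.07 (adjusted p = 0.0435). *Eif5b*, which encodes the GTPase of subunit joining, had -0.05 (95% interval -0.13 to 0.02, adjusted p = 0.23). *Eif6*, whose product keeps free large subunits apart from small ones, had -0.04 (95% interval -0.12 to 0.03, adjusted p = 0.346). By limma, 0 of these 3 genes were called, beside 50.9% of all genes, and 0 had an unadjusted p under 0.05.

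*Eif5a* (chromosome 11, 69916712 to 69921958), which encodes a protein that carries hypusine and also acts in elongation, had 29363, 30669 and 30347 normalized reads in the WT libraries and 26785, 26587 and 26638 in the N275D libraries. The N275D libraries lay close together below all WT libraries, and the log2 fold change was -0.18 (SE 0.03, limma adjusted p = 0.000209). *Eif5a2*, its scarce paralog, had 388, 380.3 and 318 normalized reads in the WT libraries and 354, 416 and 393 in the N275D libraries. Those libraries overlapped, with a log2 fold change of 0.10 (95% interval -0.08 to 0.28, adjusted p = 0.329).

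Summed over all 50 genes, initiation factor reads in N275D libraries were 91.3% to 91.9% of the WT mean, and WT libraries ranged from 98.5% to 101%. The total of all normalized reads was itself lower in N275D libraries (17666143 to 17715591) than in WT libraries (18072567 to 18182534). As a share of that total, the sum was 1.77% to 1.83% in WT and 1.68% to 1.69% in N275D libraries. By this share, the genotypes overlapped for eIF2 (0.1325% to 0.1449% in WT, 0.1334% to 0.1357% in N275D), the eIF4E group and eIF5, eIF5B and eIF6. Sums are set by the most abundant members, so they are given as a description with no test. The change in mean summed reads was 0.508% for the eIF4E group, -1.90% for eIF5, eIF5B and eIF6 together and -16.9% for eIF4G, and those of the other complexes lay between the last 2 values.

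**Figure D4:**
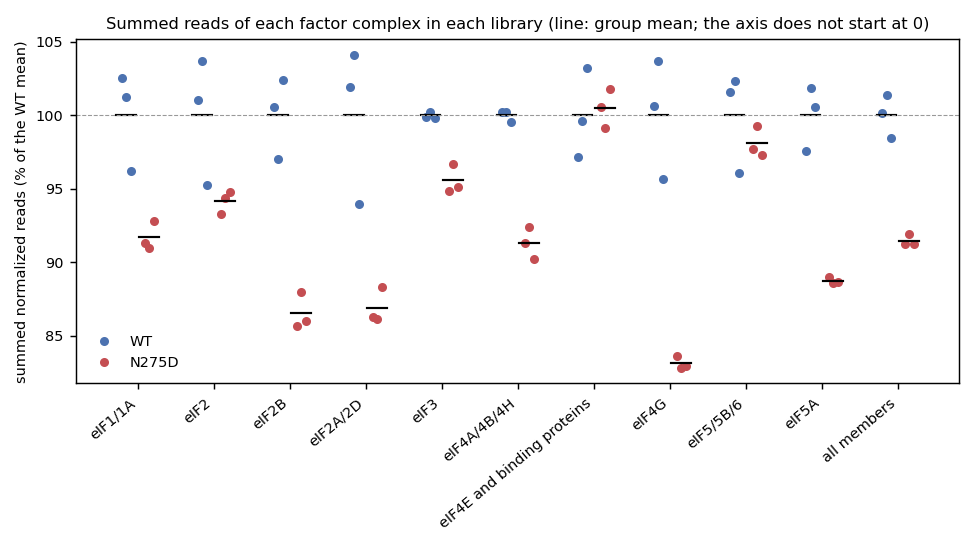
Summed normalized reads of each factor complex in each library (y axis, percent of the WT mean, not starting at 0), with WT libraries in blue, N275D libraries in red and a line at the group mean. The eIF4G sums of the N275D libraries sit between 82.8% and 83.6%, below those of every other complex. On this scale the genotypes overlap for the eIF4E group and for eIF5, eIF5B and eIF6.

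To ask whether paralogs shifted against each other, the log2 ratio of reads within each library was compared for 8 pairs, which does not depend on the scaling factor of the library. The ratios of *Eif4ebp1* over *Eif4ebp2* were -0.14, -0.30 and -0.08 in WT and 0.72, 0.66 and 0.71 in N275D libraries. This is a difference of 0.87, the largest of the 8, and the genotypes did not overlap. For *Eif4a1* over *Eif4a2* the ratios were 2.29, 2.33 and 2.43 in WT and between 1.98 and 2.05 in N275D libraries, a difference of -0.34. For *Eif4g1* over *Eif4g3* they were 2.34, 2.35 and 2.40 in WT and 2.20, 2.22 and 2.16 in N275D libraries, a difference of -0.17. Every N275D library was thus below every WT library in both pairs.

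*Eif5a* over *Eif5a2* (-0.28) and *Eif1a* over *Eif1ax* (-0.10) were also lower without overlap. For *Eif4e* over *Eif4e2* (0.02), *Eif1* over *Eif1b* (0.12) and *Eif3j1* over *Eif3j2* (0.14) the genotypes overlapped. With 3 libraries against 3, the exact two-sided permutation test cannot give a p below 0.1, which was reached in 5 of the 8 pairs and becomes 0.16 after adjustment over the 8.

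**Figure D5:**
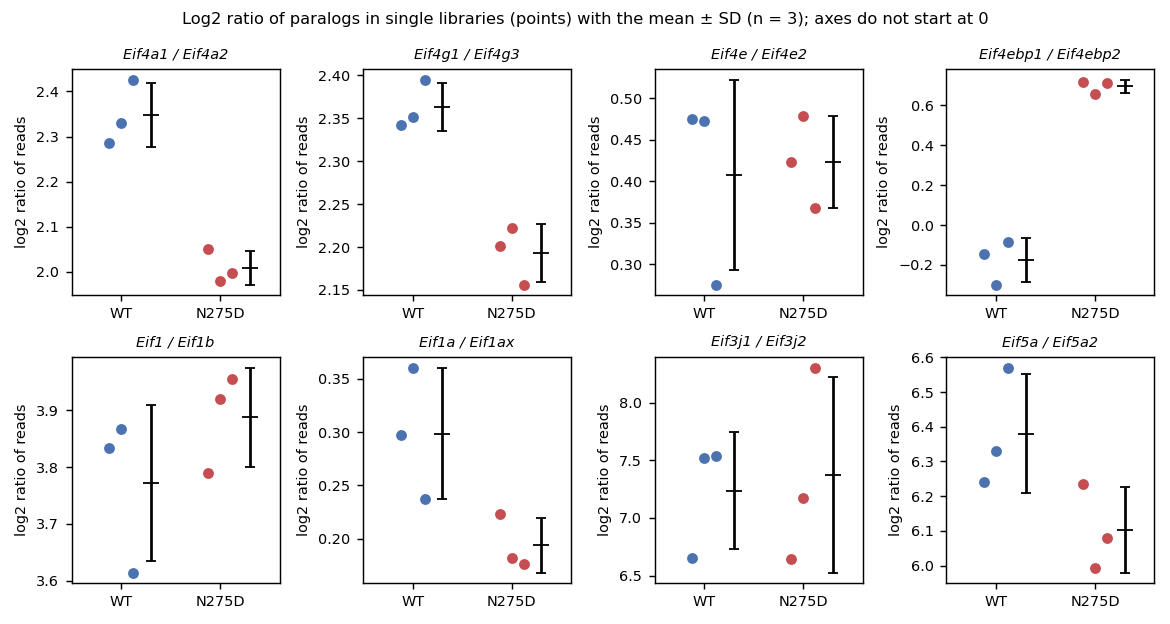
Log2 ratio of the reads of 8 paralog pairs in each library (points, y axis), with the mean ± SD (n = 3). *Eif4ebp1* over *Eif4ebp2* rises from -0.18 in WT to 0.70 in N275D libraries, and *Eif4a1* over *Eif4a2* goes from 2.35 to 2.01.

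A list of 29 partners and regulators of initiation, written from general knowledge, moved in both directions, with 8 called higher (27.6%, beside 24.7% of all genes) and 12 lower (41.4%, beside 26.1%) and a median log2 fold change of 0.00. Under quantile normalization 9 were called higher and 9 lower. With 1 library left out, 7 to 9 were called higher and 8 to 14 lower. The eIF2α kinase gene *Eif2ak2* (PKR) had 647 ± 33.9 normalized reads in WT and 885 ± 14.1 in N275D cells (SD, n = 3 each), which is 0.45 (SE 0.05, limma adjusted p = 4.37e-06) on the log2 scale. *Eif2ak3* (PERK, 0.21) and *Eif2ak4* (GCN2, 0.26) were also called higher, and *Eif2ak1*, the HRI gene, was not, at 0.00 (95% interval -0.10 to 0.11, adjusted p = 0.945). *Ppp1r15a*, which encodes the inducible subunit of the opposing phosphatase, rose too, with 1079 ± 8.43 normalized reads in WT and 1448 ± 71.8 in N275D cells (SD, n = 3 each), or 0.42 (SE 0.05, limma adjusted p = 2.47e-06) on the log2 scale.

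*Paip2*, whose product holds poly(A)-binding protein off the mRNA, had a log2 fold change of 0.40 (SE 0.04, limma adjusted p = 7.66e-07), and *Pdcd4*, which encodes an inhibitor of eIF4A, had 0.31 (SE 0.07, limma adjusted p = 0.00191). *Pabpc4*, a poly(A)-binding protein gene, was lower at -0.38 (SE 0.03, limma adjusted p = 2.03e-07), as was *Ncbp2*, a nuclear cap-binding subunit gene, at -0.37 (SE 0.05, limma adjusted p = 6.52e-06). With *Eif2ak2* and *Ppp1r15a*, these are the 6 genes of the list called with an absolute log2 fold change of at least 0.3. The kinases that phosphorylate eIF4E were *Mknk1*, called higher (0.24), and *Mknk2*, not called (0.02). *Dhps* (-0.19) and *Dohh* (-0.18), which encode the enzymes that make hypusine on eIF5A, were both lower.

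For comparison, of 14 elongation and termination genes, 4 were called higher (28.6%, beside 24.7% of all genes) and 7 lower (50%, beside 26.1%). *Eef1a1*, the gene of the factor that brings aminoacyl-tRNA to the ribosome, was higher at 0.34, while the termination factor genes *Gspt1* (-0.31) and *Etf1* (-0.19) were lower. The median of these 14 genes was -0.12, close to the -0.14 of the initiation factors, and the 2 lists were not tested against each other.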

How the data were processed

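RNA of 3 WT and 3 N275D Th17 libraries was sequenced. Per the paper's methods, the authors used trimmed reads, STAR on mm10, featureCounts for reads per gene and DESeq2 for the test. The methods describe strand-specific DNBSEQ libraries and the labels a poly-A selected directional kit. Versions and the handling of shared reads are not given in the sources used here. The deposited signal is the authors' normalized read count: 100% of values in each library are whole multiples, within 1e-06, of 1 factor per library, so reads were recovered. The authors' deposited log2 fold changes and q-values were not used, nor their group averages, a score in whole numbers. A column with the number of transcripts was not used.

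Values were tested with limma (version 3.58.1, R 4.3.3; trended prior) on log2(normalized reads + 1), which understates changes of low genes, for 11908 genes with a mean of at least 10, with Benjamini-Hochberg adjustment over all of them. Standard errors and 95% intervals are from this fit. Reads on genes, 17659035 to 18510878 per library, limit precision by counting error. Replicates differed by more than counting noise, so each was counted as 1 library. Alternatives were pseudocounts of 0.1 and 10, other filters, TMM and quantile scaling, eBayes without a trend, the replicate block, each library left out, and tests of the recovered reads by DESeq2 (1.42.0) or edgeR's quasi-likelihood method (4.0.16). The fit was tested on simulated data.

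Genes were named by rule: values of each library for calls with an absolute log2 fold change of at least 0.3, for paralog pairs and for the member with the most reads of each complex, and of the partners list those called at that size. Values of *Eif2s2* and *Eif3c*, and other genes of the lists, were singled out after they were seen. Members and lists were chosen with earlier results of these data known. Coordinates and promoters are RefSeq's (GRCm38.p6; 50 of 50 genes matched), and exon lengths and coding sequences are from GENCODE M21, also GRCm38.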

Additional observations from a re-analysis of the deposited data

How the results depend on the processing

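The count of initiation factor genes called stayed within 1.5 times of 30 in all 16 alternatives, from 23 under quantile normalization and in eBayes without a trend to 35 without WT replicate 3, and the count called higher was 4 or 5. Leaving out 1 library at a time gave 26 to 35 calls, 21 to 30 of them lower. Of the 30 genes called, 18 kept direction and call throughout. For all genes, the count at 2-fold was 427, and became 259 with a pseudocount of 10, 703 with all genes with a mean above 0 and 162 with a mean of at least 100. Under quantile normalization 11 genes that were not called changed sign, to 0.032 (*Eif2a*), 0.0077 (*Eif3a*), 0.0022 (*Eif3d*), 0.012 (*Eif3e*), 0.057 (*Eif3f*), 0.017 (*Eif3g*), 0.035 (*Eif3h*), 0.019 (*Eif3k*), 0.015 (*Eif3m*), 0.045 (*Eif5b*) and 0.039 (*Eif6*), and the cause was not tested. With 1 library left out, *Eif2a* ranged from -0.10 to 0.044, *Eif3e* from -0.16 to 0.0014, *Eif5* from -0.073 to 0.050 and *Eif3j2* from -0.72 to 0.059, and the log2 ratio of *Eif3j1* over *Eif3j2* from -0.33 to 0.50 and that of *Eif4e* over *Eif4e2* from -0.051 to 0.049. Deviations of same-numbered libraries from their group means had correlations of -0.05, 0.04 and -0.08 over genes, and those of differently numbered libraries -0.05 to 0.09. Whether the numbers mark a shared culture or preparation is not given in the sources used here. These values cannot decide it, since a shared effect can be too small to show with 3 libraries per genotype. With the replicate block, 29 initiation factor genes (24 lower) and 5727 genes in all were called. *Eif3j2* and *Eif4ebp3* had too few reads for the filter of 100, and *Eif4a3l1*, with 1 read, is below what this depth can compare.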
